A study of Saccharomyces pastorianus Weihenstephan 34/70 with 7 samples.

Results

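Expression of the lysine synthesis genes was followed in the lager yeast Weihenstephan 34/70 at the end of high gravity beer fermentations. The genes are LYS20, LYS21, LYS4, LYS12, LYS2, LYS5, LYS9, LYS1 and LYS14, chosen by their symbols, and all 9 of 9 listed had a probe set among the 5635 S. cerevisiae genes measured. RNA came from the stationary phase of fermentations of 21 °Plato wort at 14°C, in which an all-malt wort had been brought to high gravity with maltose syrup or glucose syrup. Of the 7 Affymetrix arrays, 1 was hybridized with RNA from maltose wort that had received 60 ppm Flavourzyme (maltose Flavourzyme) and 2 with RNA from untreated maltose wort (maltose control). The glucose wort gave 2 arrays with 60 ppm Flavourzyme (glucose Flavourzyme) and 2 untreated ones (glucose control). All groups shared the strain and the wort base. Flavourzyme is a peptidase mixture from Aspergillus oryzae that frees amino acids and peptides from wort protein. The comparisons address how the syrup and the added peptidases bear on the genes that make lysine.

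Yeasts make lysine by the α-aminoadipate route. It joins 2-oxoglutarate and acetyl-CoA to homocitrate, lengthens the chain in steps that resemble the citric acid cycle, and ends with the formation and cleavage of saccharopine. Lysine inhibits the homocitrate synthases at the head of the route. The activator Lys14 responds to an intermediate, and Gcn4 activates many amino acid synthesis genes, several LYS genes among them, when amino acids run short. In brewing, lysine is among the amino acids that the yeast also takes up from the wort.

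Values are log2 signals made by the authors with RMA, so a step of 1 is a factor of 2, and signals of different probe sets were not compared. Each of the 9 genes had a single probe set, none of a kind designated as binding several similar transcripts, and each lay above background (the 95th percentile of S. pombe probe sets) on all 7 arrays. Lager yeast is a hybrid of S. cerevisiae with a cold-tolerant relative, S. eubayanus, and the array carries no probe sets for the relative, so the signals cannot be assigned to either parent's gene copies. The glucose control arrays stood apart from each other (r = 0.928 over all genes, against 0.997 for maltose control and 0.988 for glucose Flavourzyme). Among the 9 genes the SD between duplicates was 0.00443 to 0.301 for maltose control, 0.0342 to 0.278 for glucose Flavourzyme and 0.0365 to 1.15 for glucose control (n = 2 each). Sampling times differed between the worts and with Flavourzyme, so effects of wort or Flavourzyme and of sampling time cannot be told apart. The methods do not say whether the duplicate arrays came from separate fermentations, and p-values then measure only the spread between these samples, which may be technical. The tests are limma's moderated tests over all genes with Benjamini-Hochberg adjustment, with 3 residual degrees of freedom. With only 1 array, maltose Flavourzyme borrows its spread from the 3 duplicated groups.

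**Figure D1:**
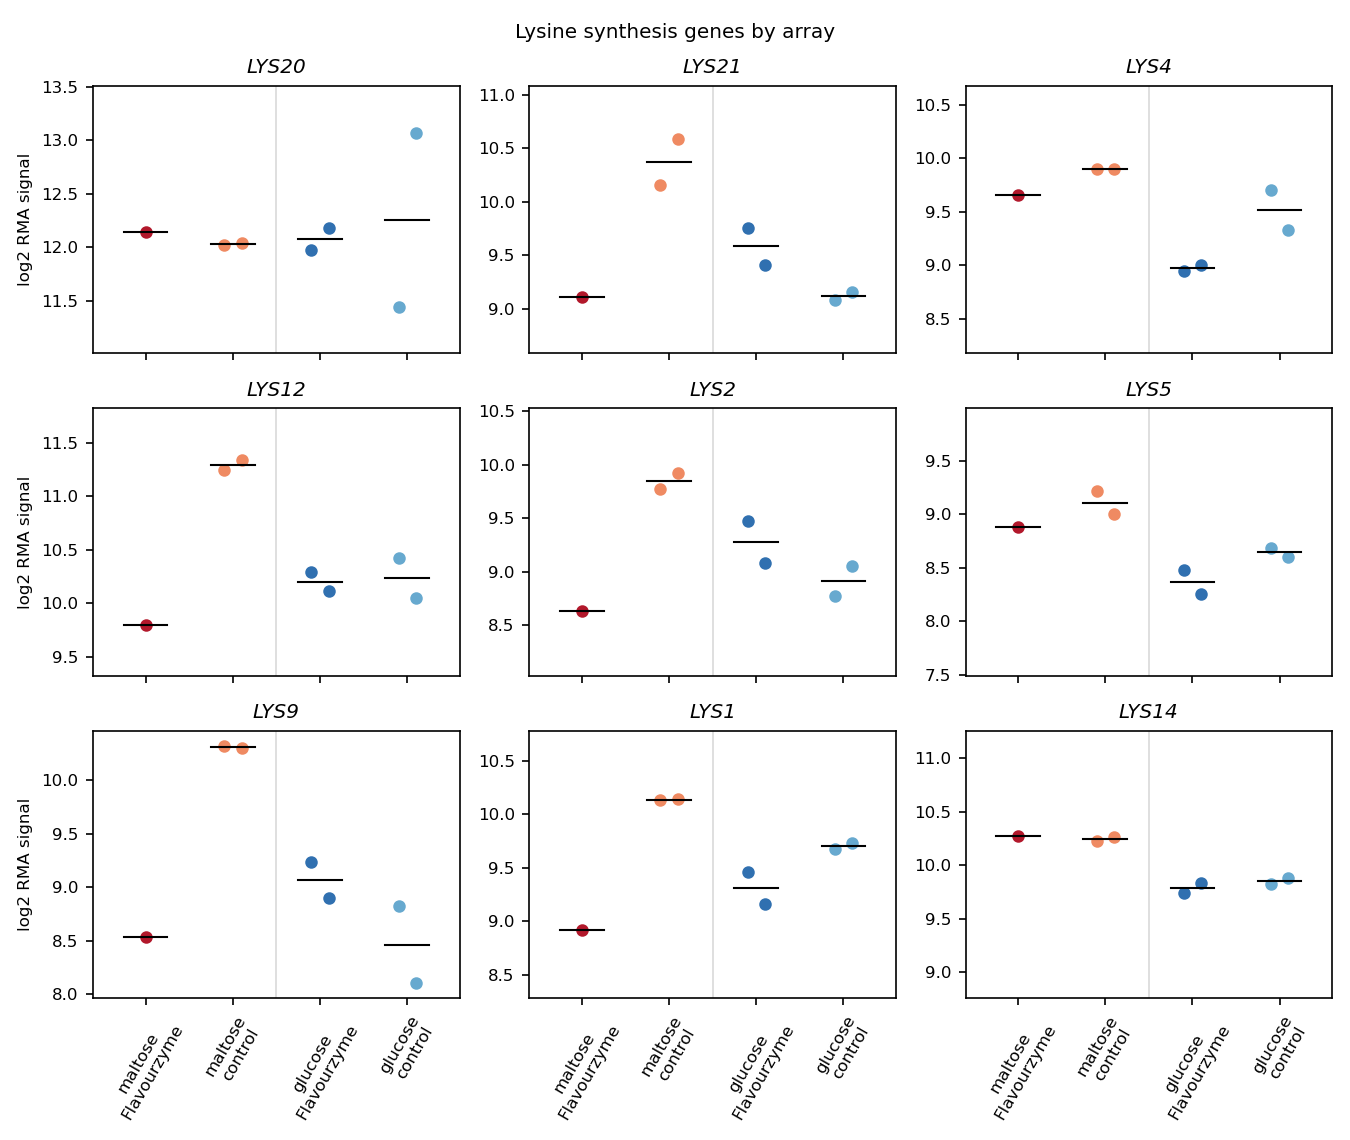
Log2 RMA signal of the 9 lysine synthesis genes on each array (points), by group, with the group mean as a line; every panel spans the same range of 2.5 log2 units, but its position differs. Maltose control is the highest group for 7 of the genes, and LYS20 differs between the glucose control arrays by 1.62.

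In the controls, 4 of 9 genes were higher in maltose wort than in glucose wort: LYS9, LYS21, LYS12 and LYS2. They encode a saccharopine-forming enzyme, a homocitrate synthase, the homoisocitrate dehydrogenase and the aminoadipate reductase. Of all genes tested, 28.6% were called in this comparison, 18.7% as higher and 9.81% as lower (1056 and 553 genes, or 966 and 820 with quantile normalization over the S. cerevisiae probe sets alone), so a call was common. The members' median log2 fold change was 0.47, against 0.20 over all genes. Without moderation of the variances none of these 4 genes was called (adjusted p-values of 0.0685, 0.0705, 0.063 and 0.0907 by limma's fit without moderation).

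LYS9 stood out among them. It encodes the saccharopine dehydrogenase that forms saccharopine from aminoadipate semialdehyde and glutamate. Its signals were 8.53 on the maltose Flavourzyme array, 10.32 and 10.30 in maltose control, 9.23 and 8.90 in glucose Flavourzyme, and 8.82 and 8.10 in glucose control. Both maltose control arrays lay above every other array. Maltose control averaged 10.31 ± 0.0153 and glucose control 8.46 ± 0.506 (SD, n = 2 each), a log2 fold change of 1.85 (standard error 0.29, limma adjusted p = 0.0129), or 3.61-fold. LYS9 was 1.65 above the median of all genes.

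LYS21 and LYS20 encode the homocitrate synthases, which catalyse the first and lysine-inhibited step. LYS21 had signals of 9.11 on the maltose Flavourzyme array, 10.15 and 10.58 in maltose control, 9.75 and 9.41 in glucose Flavourzyme, and 9.08 and 9.15 in glucose control. The maltose control arrays were again above all others. The wort difference between the controls was 1.25 (standard error 0.24, limma adjusted p = 0.018), with means of 10.37 in maltose control and 9.11 in glucose control. LYS20 had 12.14 on the maltose Flavourzyme array, 12.02 and 12.04 in maltose control, 11.97 and 12.18 in glucose Flavourzyme, and 11.44 and 13.07 in glucose control. Its 5 arrays outside the glucose control lay within the gap between the glucose controls. The wort difference of LYS20 between the controls was -0.23 (95% interval -1.49 to 1.04, limma adjusted p = 0.763), so the interval spans 0. Which direction LYS20 took depended on the glucose control used, with -1.04 without glucose control replicate 1 (limma adjusted p = 0.00241) and 0.59 without glucose control replicate 2 (limma adjusted p = 0.0258). Whether the paralogs differ in their response was not tested.

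LYS12 encodes the mitochondrial homoisocitrate dehydrogenase, which yields 2-oxoadipate. Its signals were 9.80 on the maltose Flavourzyme array, 11.24 and 11.34 in maltose control, 10.29 and 10.11 in glucose Flavourzyme, and 10.42 and 10.05 in glucose control. The maltose Flavourzyme array was the lowest of the 7 and the maltose control arrays the highest. Maltose control averaged 11.29 and glucose control 10.23, a difference of 1.05 (standard error 0.21, limma adjusted p = 0.0208).

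LYS2 encodes the α-aminoadipate reductase, which is active only once LYS5's product has attached its phosphopantetheine arm. LYS2 had 8.63 on the maltose Flavourzyme array, 9.77 and 9.92 in maltose control, 9.47 and 9.08 in glucose Flavourzyme, and 8.77 and 9.05 in glucose control. The order of the groups was that of LYS21 and LYS9 at the top, maltose control and then glucose Flavourzyme. Between the controls the wort difference was 0.94 (standard error 0.23, limma adjusted p = 0.033), with means of 9.85 in maltose control and 8.91 in glucose control. The call of LYS2 was lost when arrays were centred on their medians (0.82, limma adjusted p = 0.0633).

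The remaining 5 genes did not pass. Of these, LYS1, LYS4, LYS5 and LYS14 had wort differences of 0.43, 0.39, 0.47 and 0.40 between the controls, with adjusted p-values between 0.129 and 0.2 by limma, and LYS20 was the only gene with a negative value. All maltose control arrays were above all glucose control arrays for 8 of the 9 genes, a separation found for 43.6% of all genes. The calls depended on which arrays were in the fit, over all genes as among the 9. Those of LYS9, LYS21, LYS12 and LYS2 were lost without either maltose control, as were nearly all calls over all genes. Without maltose control replicate 1, and without replicate 2, LYS9 had 1.84 and 1.86 and LYS21 had 1.47 and 1.04. LYS12 had 1.10 and 1.00, and LYS2 had 1.01 and 0.87. Without either glucose Flavourzyme array only LYS9 stayed called; LYS21, LYS12 and LYS2 had adjusted p-values of 0.0531, 0.0599 and 0.0651. Without either glucose control, more of the 9 and more of all genes were called. Without glucose control replicate 1 the wort difference was 2.21 for LYS9, 1.24 for LYS12, 0.79 for LYS2 and -1.04 for LYS20. Without replicate 2 it was 1.49, 0.87, 1.08 and 0.59, so LYS20 changed direction.

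With Flavourzyme, no lysine gene was called between the worts. The members' median was -0.39, against 0.24 over all genes, of which 2.91% were called, 1.81% as higher. LYS9 averaged 8.53 on the maltose Flavourzyme array and 9.07 in glucose Flavourzyme, a difference of -0.54 (95% interval -1.41 to 0.34), and for LYS2 it was -0.65 (95% interval -1.34 to 0.05). LYS21, LYS12 and LYS1 stood at -0.47, -0.40 and -0.39. LYS4, LYS5 and LYS14 had positive values of 0.69, 0.51 and 0.49. An unadjusted p under 0.05 was found by limma for 1 member, LYS4 (0.036), and for 1735 of the 5635 genes tested.

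**Figure D2:**
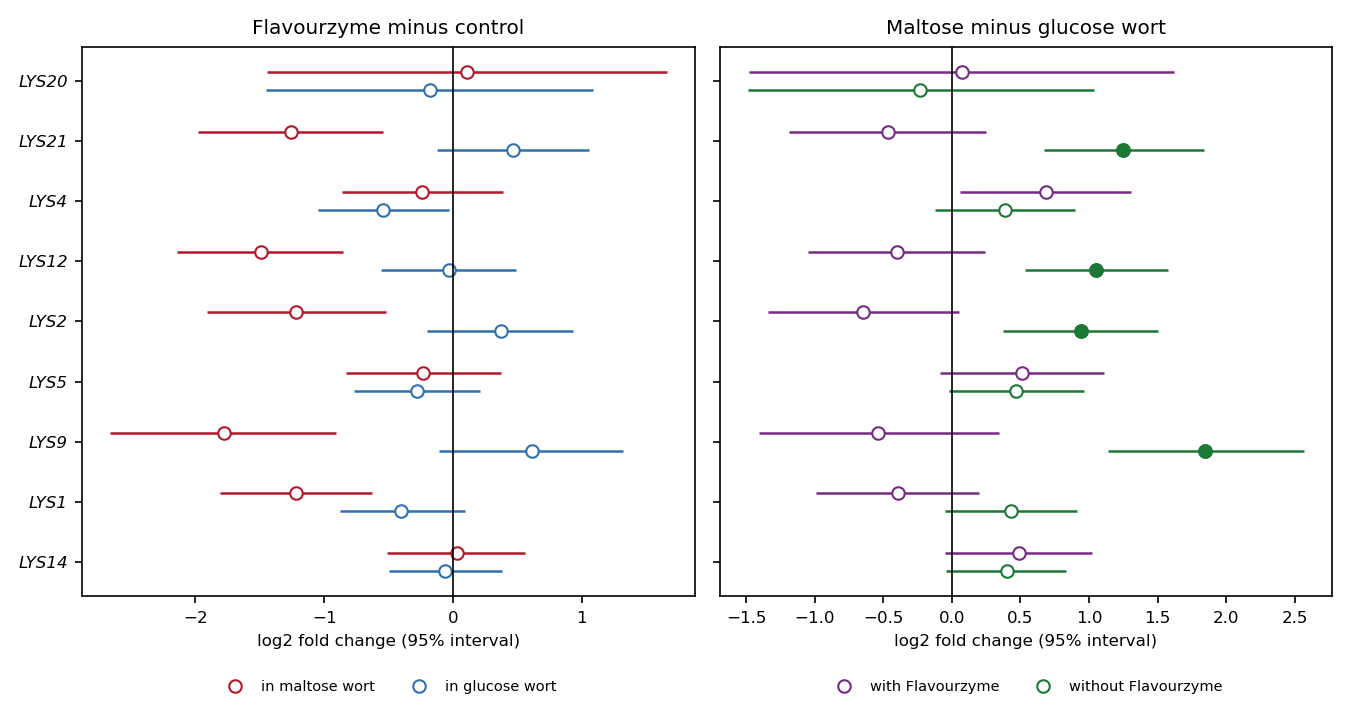
Log2 fold changes of the 9 genes, in pathway order, for Flavourzyme minus control in each wort (left) and for maltose minus glucose wort with and without Flavourzyme (right); bars are 95% intervals of the limma fit and filled points are genes called at an adjusted p under 0.05. Only the wort difference without Flavourzyme holds filled points, LYS21, LYS12, LYS2 and LYS9, while 5 genes have their lowest values for Flavourzyme in maltose wort.

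In maltose wort, 5 genes had lower signals on the Flavourzyme array than in control by more than a factor of 2, but none passed the adjusted test. On the log2 scale the difference was -1.78 for LYS9 (standard error 0.36, limma adjusted p = 0.0687), and -1.49 for LYS12 (standard error 0.26, limma adjusted p = 0.0588). For LYS21, LYS2 and LYS1 it was -1.26, -1.22 and -1.22, with limma adjusted p-values of 0.0866, 0.0866 and 0.0687. These 5 genes had an unadjusted p under 0.05, and 1246 of all genes tested did. LYS4 and LYS5 had -0.24 and -0.23, and LYS14 and LYS20 had 0.03 and 0.11. The members' median was -1.22, against -0.04 over all genes. The test called 1.99% of all genes, 1.08% as lower, and a test without moderation called none of the 9. With quantile normalization over the S. cerevisiae probe sets alone, LYS1, LYS9 and LYS12 were called. With a moderation that follows intensity, LYS12 was. These settings called 423 and 180 of all genes, against 112 in the main fit.

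LYS1 encodes the saccharopine dehydrogenase that releases lysine in the last step. Its signals were 8.92 on the maltose Flavourzyme array, 10.13 and 10.14 in maltose control, 9.46 and 9.16 in glucose Flavourzyme, and 9.68 and 9.73 in glucose control. In both worts the Flavourzyme arrays lay below the controls. That position was found for 49.2% of all genes in maltose wort (1 array against 2) and for 19.3% in glucose wort. On average over the worts, LYS1 had the largest Flavourzyme difference of the 9 genes, -0.81 (standard error 0.15, unadjusted p = 0.00219, limma adjusted p = 0.194), followed by LYS12 with -0.76 (unadjusted p = 0.00443, limma adjusted p = 0.206). Without the maltose Flavourzyme array, which leaves glucose wort alone, LYS1 stood at -0.40 and LYS12 at -0.03. Without glucose control replicate 1, and likewise without replicate 2, the limma adjusted p was 0.0134 and 0.0115 for LYS1 and 0.0154 and 0.00913 for LYS12, with values short of the log2 fold threshold of 1.301 that the methods set for averaged effects.

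How the values in maltose wort were called depended on the spread taken from the other groups. Without glucose control replicate 1, which is not part of this comparison, the log2 fold changes did not change. Members were then called as lower that were not called with all arrays. Leaving out replicate 2 gives the same result by design, because a group of 1 array adds nothing to the spread. It is therefore not a second result. Many more of all genes were called in this way than the 112 called with all arrays. Without either maltose control or either glucose Flavourzyme array, no member was called. The maltose Flavourzyme group is a single array, so its own spread is not known.

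In glucose wort, the values of the 9 genes were spread around 0 and none was called. The median was -0.06, against -0.08 over all genes, of which 0% were called; 393 of all genes and 1 member, LYS4, had an unadjusted p under 0.05. LYS9, LYS21 and LYS2 had positive values of 0.61 (95% interval -0.11 to 1.32), 0.47 (95% interval -0.12 to 1.06) and 0.37 (95% interval -0.20 to 0.93). LYS4, LYS1 and LYS5 had -0.54, -0.40 and -0.28. Without glucose control replicate 1, LYS9 stood at 0.96, LYS20 at -0.99 and LYS4 at -0.35. Without glucose control replicate 2 they stood at 0.25, 0.63 and -0.72. Genes were called in both settings, members among them, where none was with all arrays.

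The interaction, which is how far the Flavourzyme difference of maltose wort exceeds that of glucose wort, was most negative for LYS9, at -2.39 (standard error 0.46, limma adjusted p = 0.0918). LYS21, LYS2 and LYS12 had -1.73, -1.58 and -1.46, with limma adjusted p-values of 0.104, 0.112 and 0.113, and LYS1 had -0.83. These 5 genes had an unadjusted p under 0.05, as had 1076 of all genes. By limma, 0.0355% of all genes and none of the 9 passed, and without moderation none of the 9 did either. The members' median interaction was -0.83, against 0.04 over all genes. With either glucose control left out, more of the 9 and more of all genes were called than with all arrays. Without glucose control replicate 1 the interaction was -2.75 for LYS9, -1.64 for LYS12 and 1.11 for LYS20. Without replicate 2 it was -2.03, -1.28 and -0.52.

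LYS4, LYS5 and LYS14 had positive maltose minus glucose values both with and without Flavourzyme, short of the threshold. LYS4 encodes homoaconitase. Its signals were 9.66 on the maltose Flavourzyme array, 9.90 and 9.90 in maltose control, 8.95 and 9.0 in glucose Flavourzyme, and 9.70 and 9.33 in glucose control. LYS5, the phosphopantetheinyl transferase that activates Lys2, had 8.88 on the maltose Flavourzyme array, 9.22 and 9.0 in maltose control, 8.48 and 8.26 in glucose Flavourzyme, and 8.69 and 8.60 in glucose control. For LYS5 all 3 maltose arrays were above all 4 glucose arrays. LYS14, the transcriptional activator of the pathway, had 10.27 on the maltose Flavourzyme array, 10.23 and 10.26 in maltose control, 9.74 and 9.83 in glucose Flavourzyme, and 9.82 and 9.88 in glucose control. LYS14 varied least of the 9, over a range of 0.53, and its maltose arrays also lay above all its glucose arrays. The median signal of all genes was 9.25 on the maltose Flavourzyme array and 9.25 and 9.28 in maltose control. It was lower on every glucose array, at 9.0 and 9.11 in glucose Flavourzyme and 9.2 and 9.1 in glucose control. The share of all genes separated in this way was not counted, so the separation cannot be taken as particular to LYS5 and LYS14. Averaged over Flavourzyme, the maltose minus glucose difference was 0.54 for LYS4, 0.49 for LYS5 and 0.44 for LYS14, with limma adjusted p-values of 0.0505, 0.0584 and 0.056. In this average the median over all genes was 0.26. None of the 9 genes passed the adjusted p in this average, where 34.3% of all genes did, and none reached the log2 fold threshold of 1.301 (8.8% of all genes passed both, 5.24% as higher and 3.57% as lower, against 23% and 11.3% by the adjusted p alone). The adjusted p of LYS4 and LYS14 lay on either side of 0.05 by setting. It was 0.0478 and 0.046 with a moderation that follows intensity, and 0.0488 for LYS4 among genes above background only. With arrays centred on their medians, the limma adjusted p was 0.101, 0.167 and 0.159 for LYS4, LYS5 and LYS14. With quantile normalization over the S. cerevisiae probe sets alone it was 0.0766, 0.196 and 0.0584. A block for the replicate numbers gave 0.0978, 0.108 and 0.0996 by limma. Without glucose control replicate 1, LYS4, LYS5, LYS9 and LYS14 stood at 0.63, 0.51, 0.84 and 0.43, and LYS20 at -0.49. Without glucose control replicate 2 they stood at 0.44, 0.46, 0.48 and 0.46, and LYS20 at 0.33. Without moderation LYS14 had an adjusted p of 0.0342 for this average, and it was the only member called between the controls (limma fit without moderation, adjusted p = 0.0444).

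Averaged over the worts, all 9 genes had lower mean signals with Flavourzyme than without, from -0.81 for LYS1 to -0.02 for LYS14. Lower values were also found for 3367 of the 5635 genes tested and for 32 of 35 other amino acid synthesis genes. The members' median was -0.39, against -0.08 over all genes. The signs of LYS14 and LYS20 turned when arrays were centred on their medians (0.04 and 0.02). That of LYS20 also turned with quantile normalization over S. cerevisiae probe sets (0.02). By limma none passed and 0.0355% of all genes did, while 3 of the 9 and 901 of all genes had an unadjusted p under 0.05. A test without moderation called none. Without the maltose Flavourzyme array, where the effect is that in glucose wort alone, LYS9, LYS21 and LYS2 stood at 0.61, 0.47 and 0.37.

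Across the 7 arrays the members fell into patterns that were picked out after their values had been seen. LYS1, LYS2, LYS9, LYS12 and LYS21 correlated pairwise with Pearson r between 0.68 and 0.96, and LYS4, LYS5 and LYS14 with r between 0.79 and 0.91. Between these sets r was 0.23 to 0.67. LYS20 had r between -0.41 and 0 with the others. These are descriptions over 7 arrays that share their normalization, and the duplicates are not independent conditions. The genes most like the members' mean profile, of 2692 with an SD of at least 0.5, were SCD6, a regulator of translation and mRNA decapping (r = 0.994), the ribosomal protein gene RPL19A (0.988), MGR2 of the mitochondrial protein import machinery (0.985), the vacuolar amino acid transporter AVT1 (0.984) and the ribosomal protein gene RPS3 (0.984). SCD6 had 9.70 on the maltose Flavourzyme array, 10.75 and 10.89 in maltose control, 9.78 and 9.72 in glucose Flavourzyme, and 9.71 and 9.86 in glucose control.

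Genes of ribosomal proteins and other amino acid synthesis genes had the same high position in maltose control. The mean over the 9 lysine genes was 9.55 on the maltose Flavourzyme array, 10.33 and 10.39 in maltose control, 9.71 and 9.55 in glucose Flavourzyme, and 9.60 and 9.66 in glucose control. For ribosomal protein genes it was 10.32 on the maltose Flavourzyme array, 11.57 and 11.53 in maltose control, 10.64 and 10.41 in glucose Flavourzyme, and 10.59 and 10.10 in glucose control. Probe sets for ribosomal RNA had 9.61 on the maltose Flavourzyme array, 8.70 and 8.74 in maltose control, 13.18 and 12.21 in glucose Flavourzyme, and 11.20 and 11.65 in glucose control. The maltose controls were thus lowest for ribosomal RNA and highest for the lysine and ribosomal protein genes, and the part of either in the lysine results was not tested. Of 35 other amino acid synthesis genes (branched-chain, histidine, arginine and aromatic), 8 were called higher and 1 lower between the controls, where 18.7% of all genes were called higher and 9.81% lower, and their median was 0.26. For Flavourzyme in maltose wort, 3 of the 35 were called, all lower, where 1.08% of all genes were, with a median of -0.82 against -1.22 for the lysine genes. Whether the lysine genes differ from these lists was not tested.

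**Figure D3:**
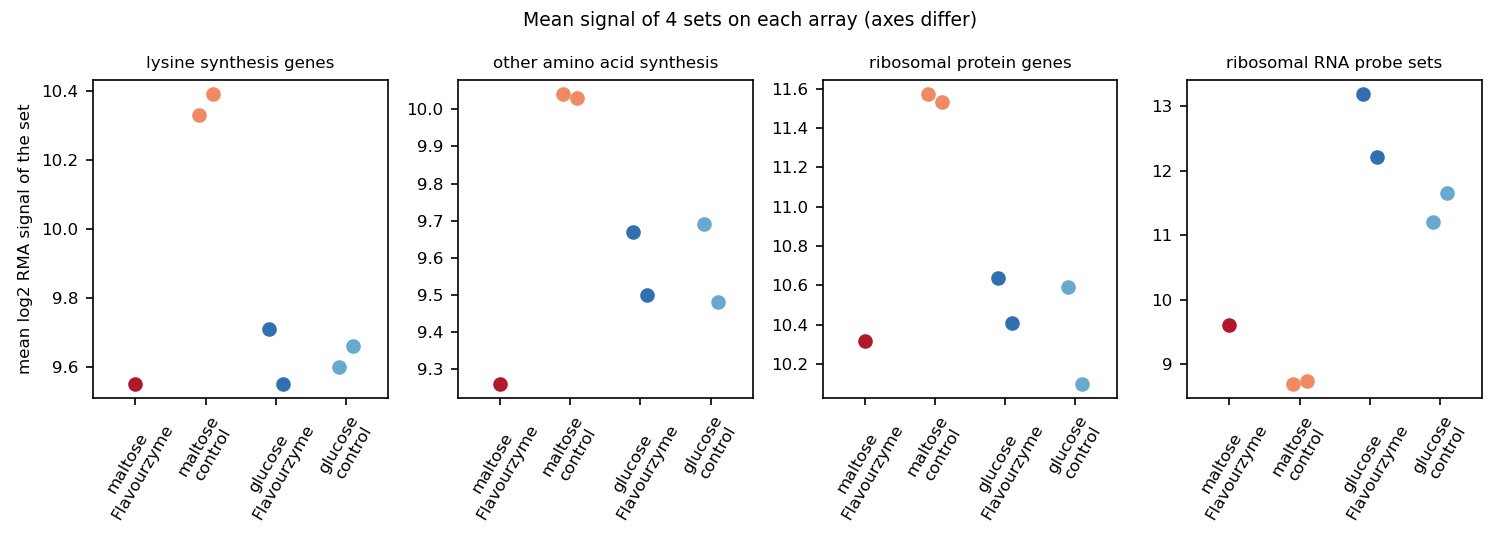
Mean log2 RMA signal on each array (points) of the 9 lysine synthesis genes, 35 other amino acid synthesis genes, the ribosomal protein genes and the ribosomal RNA probe sets; the axes differ between panels and do not start at 0. The 2 maltose controls are highest in the first 3 panels and lowest in the fourth.

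Of 28 genes that supply the substrates of the pathway, regulate it, carry lysine or charge it onto tRNA, none was called higher and 3 were called lower in maltose control than in glucose control. That is 10.7% of them called lower, near the 9.81% of all genes. CIT2, the peroxisomal citrate synthase, had 12.56 on the maltose Flavourzyme array, 11.61 and 11.52 in maltose control, 13.83 and 13.82 in glucose Flavourzyme, and 14.07 and 14.28 in glucose control. Its difference between the controls was -2.61 (standard error 0.19, limma adjusted p = 0.00501). The mitochondrial citrate synthase CIT1 had -1.15 (standard error 0.18, limma adjusted p = 0.013). RTG1, part of the retrograde activator of CIT2, had -1.82 (standard error 0.44, limma adjusted p = 0.0314), with signals of 8.51 and 9.64 in glucose control. RTG2 and RTG3, also among the 28, were not called, at -0.71 and 0.40 (limma adjusted p = 0.102 and 0.245). Citrate synthases feed the formation of 2-oxoglutarate, a substrate of the route. CIT2 also passed both thresholds averaged over Flavourzyme (-1.94, limma adjusted p = 0.00458), as the only gene of the 28.

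GCN4, LYP1, MKS1 and KRS1 were not called in any comparison. GCN4, the general activator of amino acid synthesis genes, had 12.71 on the maltose Flavourzyme array, 12.92 and 12.80 in maltose control, 12.70 and 12.86 in glucose Flavourzyme, and 13.39 and 12.85 in glucose control. Gcn4 is known to be controlled mainly at translation, which the arrays do not measure. LYP1, the lysine permease, had 11.37 on the maltose Flavourzyme array, 11.11 and 10.99 in maltose control, 11.69 and 11.80 in glucose Flavourzyme, and 11.61 and 12.48 in glucose control. Its wort difference between the controls was -1.0 (standard error 0.31, limma adjusted p = 0.0618). MKS1, a negative regulator of retrograde genes, had -0.60 in that comparison. KRS1, the cytoplasmic lysyl-tRNA synthetase, had 8.50 on the maltose Flavourzyme array, 10.85 and 10.88 in maltose control, 11.26 and 11.13 in glucose Flavourzyme, and 9.82 and 11.97 in glucose control. The maltose Flavourzyme array was the lowest of the 7 for KRS1, with a difference of -2.36 from maltose control (standard error 0.80, limma adjusted p = 0.165). ARO8, an aminotransferase that also acts on 2-oxoadipate, had 8.77 on the maltose Flavourzyme array, 10.54 and 10.60 in maltose control, 10.17 and 9.81 in glucose Flavourzyme, and 9.91 and 8.74 in glucose control. Its groups were in the order of LYS2 and LYS21, with maltose control highest and maltose Flavourzyme lowest, and its difference between the controls was 1.25 (standard error 0.40, limma adjusted p = 0.0653).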

How the data were processed

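Total RNA of 7 stationary phase samples had been hybridized to Affymetrix Yeast Genome 2.0 arrays. The authors deposited log2 values made with RMA (function rma of affy: background correction, quantile normalization over all probe sets, median polish). For affy the sources used here give no version. Of 10928 probe sets, 5685 named S. cerevisiae genes. The highest mean was kept where a gene had several, which gave 5635 genes. The linear model had the 4 group means as terms and was run in limma 3.58.1 (R 4.3.3; 3 residual and 2.78 prior degrees of freedom, prior SD 0.251), two-sided. Calls needed an adjusted p under 0.05 over all genes. Effects averaged over wort or Flavourzyme also had to exceed 1.301 in absolute log2 fold change, the number the methods give, read here as a log2 threshold. The number of arrays limits the precision. The fit was tested on simulated data in which a gene had the same spread in every group. The duplicates here differed in spread, so that test cannot show how the calls hold under unequal spread. The 9 members and the lists around them were chosen with earlier results of these data known. All 9 are described. Genes around the pathway are named when called or when listed as main regulators and users, while ARO8 was named after its values were seen.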

Additional observations from a re-analysis of the deposited data

Results flagged for a closer look

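LYS2, LYS9 and LYS21 had opposite Flavourzyme differences in the worts: every Flavourzyme array lay below its controls in maltose wort and above them in glucose wort. Their interactions were -1.58, -2.39 and -1.73. LYS1, LYS2, LYS9, LYS12 and LYS21 had opposite wort differences with and without Flavourzyme, where the maltose Flavourzyme array lay below both glucose Flavourzyme arrays and both maltose controls lay above both glucose controls, with interactions of -0.83, -1.58, -2.39, -1.46 and -1.73. None of these interactions passed the adjusted test by limma (adjusted p between 0.0918 and 0.238). Opposite positions, in this or the reverse orientation, were found for 15.6% of all genes between the worts and for 13.3% between the Flavourzyme states. The share of all genes with the orientation of these members was not counted.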

How the results depend on the processing

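Leaving out 1 array at a time changed the number of lysine genes called from 0 to 7 for the wort difference without Flavourzyme (4 with all arrays), 0 to 3 for that with Flavourzyme, 0 to 5 for Flavourzyme in maltose wort and for the interaction, 0 to 2 for Flavourzyme in glucose wort and 0 to 1 for the average wort effect; the others were 0 with all arrays. Each of the highest counts came from a fit in which more of all genes were called too than with all arrays. The rise in calls was therefore not particular to the lysine genes, and whether it was larger for them was not tested. Without moderation 1 lysine gene was called between the controls. Quantile normalization over S. cerevisiae probe sets gave 3 calls for Flavourzyme in maltose wort and 1 for the interaction, and an intensity trend gave 1 in maltose wort. Centring the arrays on their medians left LYS2 short between the controls (0.82, limma adjusted p = 0.0633).

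The replicate numbers share only a number (same-numbered deviations correlated at 0.1, 0.01 and 0.18). With the replicate block, 3 lysine genes were called between the controls (LYS2 had a limma adjusted p of 0.0513) and 1494 of all genes, against 1609. The block left 2 genes called for Flavourzyme in maltose wort (112 without it), 0 for the wort difference with Flavourzyme (164) and 0 each for the interaction and the average Flavourzyme effect (2 each).

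Some signs turned. The block gave 0.12 (average Flavourzyme effect) and 0.07 (average wort effect) for LYS20, -0.0015 for LYS1 (average wort effect) and -0.05 for LYS5 (interaction). Quantile normalization gave 0.02 for LYS20 (average Flavourzyme effect), -0.09 for LYS1 and -0.00093 for LYS2 (average wort effect) and -0.06 for LYS5 (interaction). Centring gave 0.04 for LYS14 and 0.02 for LYS20 (average Flavourzyme effect), -0.14 for LYS1 and -0.01 for LYS2 (average wort effect), -0.03 for LYS5 (interaction), 0.06 for LYS12 and 0.03 for LYS14 (Flavourzyme in glucose wort) and -0.13 for LYS20 (wort with Flavourzyme). With 1 array left out, the average Flavourzyme effect ranged from -0.52 to 0.37 for LYS2, -0.77 to 0.61 for LYS9, -0.06 to 0.01 for LYS14, -0.44 to 0.37 for LYS20 and -0.5 to 0.47 for LYS21. The average wort effect ranged from -0.06 to 0.43 for LYS1 and -0.49 to 0.33 for LYS20, and the interaction from -0.07 to 0.16 for LYS5 and -0.52 to 1.11 for LYS20. Flavourzyme in glucose wort ranged from -0.21 to 0.15 for LYS12 and -0.99 to 0.63 for LYS20, whose wort difference ranged from -0.04 to 0.17 with Flavourzyme and -1.04 to 0.59 without.

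Over all genes, 581 were called between the controls without moderation, 138 for the average wort effect (496 with it), 9 for Flavourzyme in maltose wort and 14 for the wort difference with Flavourzyme. An intensity trend gave 180 for Flavourzyme in maltose wort and 50 for the interaction. Quantile normalization gave 423 and 167 for these and 353 for the wort difference with Flavourzyme, and centring gave 91 for the last. The split between the controls was 1056 higher and 553 lower, against 966 and 820 with quantile normalization, where the median of all genes was 0.02 and not 0.20, and for the average wort effect 295 and 201, against 127 and 263 (176 and 282 with centring). For the wort difference with Flavourzyme it was 102 and 62, against 158 and 195 with quantile normalization and 33 and 58 with centring. With 1 array left out, 1 to 3720 genes were called between the controls, 0 to 3049 between the worts with Flavourzyme, 0 to 2166 for Flavourzyme in maltose wort, 0 to 1874 for it in glucose wort, 0 to 2200 for the interaction, 0 to 912 for the average wort effect and 0 to 55 for the average Flavourzyme effect. The cause of these changes was not tested. All 9 genes were above background on every array.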
